A study of Mus musculus with 10 samples.

Results

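The small heat shock proteins and the co-chaperone BAG3 were described here through 8 genes, Hspb1, Hspb2, Hspb3, Hspb6, Hspb7, Hspb8, Cryab and Bag3, found by gene symbol among the 23337 genes of the deposited files. The members were chosen as a protein family together with BAG3, a partner of several of them. All 8 were present and all 8 passed the filter on low counts in every comparison.

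Small heat shock proteins share an alpha-crystallin domain, assemble into oligomers, and hold unfolding proteins in a state from which ATP-driven chaperones can refold or discard them. BAG3 joins HSPB8 to HSP70, and with the ubiquitin ligase CHIP this complex sends damaged filamin and other proteins of the Z-disc to the autophagosome, a route called chaperone-assisted selective autophagy. Heart and skeletal muscle are rich in these proteins, and mutations in CRYAB, BAG3 and HSPB8 cause muscle disease in people.

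RNA of left ventricle (LV) and skeletal muscle (SkM) was measured by bulk poly(A) RNA sequencing in 5 mice, giving 10 libraries, each from 1 tissue of 1 mouse. There were 2 WT mice and 3 mice heterozygous for a germline deletion of E0, a stretch of putative enhancer sequence within the first intron of the titin gene Ttn. The mice were hybrids from crosses of E0del/+ animals on C57BL/6 with WT animals of 129SvEv. Their age is not given in the labels. Batch numbers in the labels equal the replicate numbers, so batches 1 and 2 each held a WT and an E0del/+ mouse, while batch 3 held only an E0del/+ mouse. Total counts per library lay between 11010021 and 17484873, with a median of 14050602. Levels are given as CPM, the usual depth-scaled share of a library's total count, unless another scale is named, and 3 counts corresponded to between 0.172 and 0.273 CPM, a floor that covers counting error only.

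The tissue labels were checked against marker lists. Of 10 ventricular cardiomyocyte genes, 10 were higher in LV, and the most abundant, Myh6, lay between 37356 and 54803 CPM in LV and between 37.7 and 213.6 CPM in SkM. Of 10 genes of fast skeletal fibres, 10 were higher in SkM, led by Myh4. In SkM the cardiac regulators Nkx2-5, Tbx20 and Gata4 reached at most 1.05 CPM, and Nkx2-5 had a count of 0 in 4 of the 5 SkM libraries.

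The LV library of WT replicate 2 stood apart from the other LV libraries. Its 10 fast-fibre genes summed to 42846 CPM, where the other 4 LV libraries held between 184.3 and 211.2 CPM and the SkM libraries between 172512 and 183806 CPM. Myh4 alone gave 18473 CPM in this library and between 70.3 and 81.7 CPM in the other LV libraries. The comparison of tissues therefore used the 4 other mice, and the comparison of genotypes in LV is given with and without this library. Y-linked transcripts marked a pair of the mice as Y-bearing, WT replicate 2 and E0del/+ replicate 3, while Xist was expressed in the remaining 3. The SkM library of WT replicate 1 expressed Xist at 396.9 CPM and also held 12.5 CPM of the Y-linked Ddx3y, against 94.1 and 107.8 CPM in SkM of the Y-bearing mice.

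The members sit at 7 places on 5 chromosomes of mm10. Cryab (chr9:50752758-50756633, plus strand) and Hspb2 (chr9:50751072-50752354, minus strand) lie head to head with 403 bases between them. Hspb1 (chr5:135887919-135889563, plus strand) and Hspb8 (chr5:116408495-116422864, minus strand) share a chromosome, as do Hspb6 (chr7:30553302-30555439, plus strand) and Bag3 (chr7:128523583-128546979, plus strand). Hspb3 (chr13:113662896-113663676, minus strand) is a gene of a single exon, and Hspb7 is at chr4:141420779-141425310 on the plus strand.

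Promoter sequences, taken as the 250 bases before a start, were available from RefSeq on GRCm38.p6 for 6 of the 8 members in 7 windows. Hspb2 and Cryab were not among them. Both strands were searched for the heat shock element (GAANNTTC or TTCNNGAA), the E-box (CANNTG), the TATA box (TATAAA), the CArG box and the MEF2 site. A heat shock element matched in 3 of 7 windows and in 12.8% of all 32851 promoter windows. The E-box matched in 4 of 7 (66.2% of all windows), the TATA box in 2 of 7 (12.4%), the MEF2 site in 1 of 7 (2.92%) and the CArG box in 0 of 7 (1.47%). A match is a description, not a site or a cause. The windows of 5 members are printed because Hspb7 and Hspb3 had the widest differences between tissues, in opposite directions, and because Hspb1, Hspb6, Hspb7 and Bag3 were highest in the same SkM library. Capitals mark matches of the heat shock element, TATA box and MEF2 site, and the more frequent E-box is not marked.
Hspb1, chr5:135887669-135887918, plus strand: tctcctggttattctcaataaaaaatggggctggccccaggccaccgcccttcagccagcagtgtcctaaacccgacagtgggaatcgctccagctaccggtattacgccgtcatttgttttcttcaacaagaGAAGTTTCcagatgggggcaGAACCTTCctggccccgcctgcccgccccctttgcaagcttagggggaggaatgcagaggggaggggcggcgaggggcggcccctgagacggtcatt
Hspb6, chr7:30553051-30553300, plus strand: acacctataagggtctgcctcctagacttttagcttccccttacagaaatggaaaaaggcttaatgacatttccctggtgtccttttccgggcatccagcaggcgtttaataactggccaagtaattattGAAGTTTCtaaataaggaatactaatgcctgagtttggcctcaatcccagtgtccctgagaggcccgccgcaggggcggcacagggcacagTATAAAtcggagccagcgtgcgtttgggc
Hspb3, chr13:113663677-113663926, minus strand: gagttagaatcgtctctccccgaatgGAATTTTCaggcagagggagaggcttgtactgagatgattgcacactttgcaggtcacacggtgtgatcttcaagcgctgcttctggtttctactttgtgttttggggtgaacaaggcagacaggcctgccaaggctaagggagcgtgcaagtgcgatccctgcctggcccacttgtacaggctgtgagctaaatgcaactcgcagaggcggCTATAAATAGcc
Hspb7, chr4:141420529-141420778, plus strand: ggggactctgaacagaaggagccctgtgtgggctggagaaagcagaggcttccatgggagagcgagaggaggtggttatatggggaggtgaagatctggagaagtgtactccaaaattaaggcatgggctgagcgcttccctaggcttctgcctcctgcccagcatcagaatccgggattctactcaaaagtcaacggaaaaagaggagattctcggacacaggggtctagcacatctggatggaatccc
Bag3, chr7:128523333-128523582, plus strand: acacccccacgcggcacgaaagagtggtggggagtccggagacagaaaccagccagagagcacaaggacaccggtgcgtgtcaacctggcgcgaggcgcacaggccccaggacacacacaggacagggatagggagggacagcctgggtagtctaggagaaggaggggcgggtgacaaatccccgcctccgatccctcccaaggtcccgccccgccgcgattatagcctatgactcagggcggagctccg

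The Hspb1 window held heat shock element matches starting 117 and 97 bases before the start. In the Hspb6 window, which belongs to the second of its starts in the table, a match began 120 bases before the start and a TATA box 29 bases before it. In Hspb3 a match began 224 bases before the start, and its MEF2 site, 12 bases before the start, contains its TATA box, so those matches overlap. The Hspb7 window held only an E-box, starting 17 bases before the start, and the Bag3 window held no match of the 5 motifs. Of the windows not printed, that of Hspb8 held only an E-box and the other one of Hspb6 held no match.

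Levels can be compared between genes only per length, as RPKM, the CPM divided by the exon length in kilobases. In LV without WT replicate 2, Hspb7 led with 1454 ± 111 RPKM (SD, n = 4) and stood at rank 21 among all genes. Hspb6 followed with 774 ± 116 RPKM and Cryab with 589 ± 89.6 RPKM, and the ranges of this pair overlapped although Hspb6 was above Cryab in 4 of 4 libraries. Below them came Hspb8 (249 RPKM), Hspb1 (155 RPKM), Bag3 (94.8 RPKM), Hspb2 (46.0 RPKM) and Hspb3 (5.09 RPKM), whose ranges did not overlap with their neighbours'. A different member headed the order in SkM, where Hspb6 reached 605 ± 160 RPKM (SD, n = 5). Hspb8 (214 RPKM), Cryab (158 RPKM), Hspb7 (117 ± 81.5 RPKM) and Hspb1 (81.2 RPKM) followed. Cryab, Hspb7 and Hspb1 each overlapped in range with the gene before it, and Hspb8 did not overlap with Hspb6. Hspb2 (38.5 RPKM), Bag3 (31.5 RPKM) and Hspb3 (11.5 RPKM) came last and did not overlap.

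**Figure D1:**
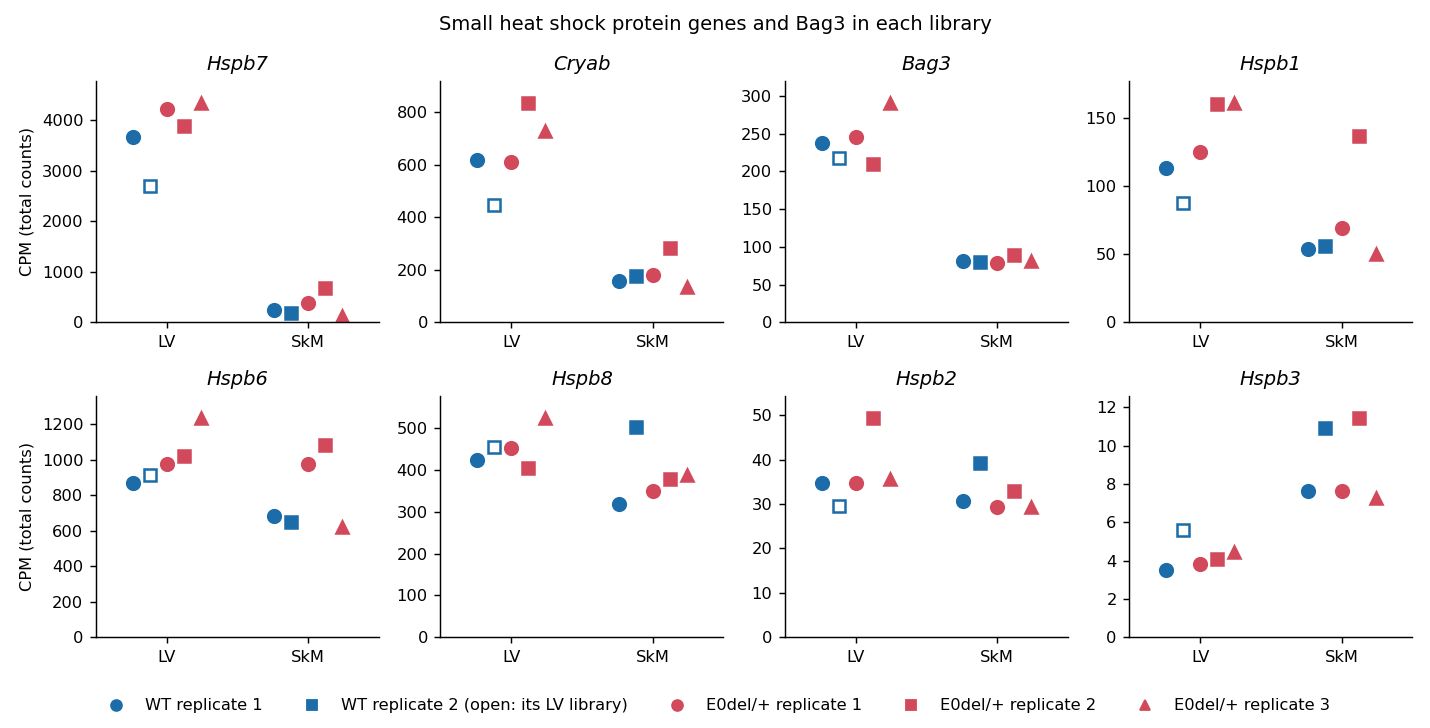
Level of each of the 8 members in CPM in every library, by tissue, with colour for genotype, shape for replicate and an open square for the LV library of WT replicate 2. Hspb7, Cryab and Bag3 were higher in each of the 4 other LV libraries than in any SkM library, and Hspb3 was lower.

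The first comparison asked how the tissues differ within a mouse. A call here and below is a p under 0.05 in edgeR's quasi-likelihood test after adjustment over all genes tested by the method of Benjamini-Hochberg. Between LV and SkM of 4 mice, 3 of 8 members were called higher in LV (31.5% of the 13375 genes tested) and 2 of 8 higher in SkM (29.8% of all genes). By libraries that did not overlap between 4 LV and 5 SkM libraries, 3 of 8 were higher in LV (29.8% of all genes) and 1 of 8 higher in SkM (27.6%). These shares are near the background, so the count is not a result about the members. Their median log2 fold change was -0.01, against 0.02 over all genes. What the values show is how far each member went and in which direction. In bulk tissue, fewer cells of a type and less RNA per cell cannot be told apart.

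Hspb7 encodes the cardiovascular small heat shock protein, which binds filamin C and actin. In LV it lay at 3664 CPM in WT replicate 1 and at 4217, 3879 and 4336 CPM in E0del/+ replicates 1, 2 and 3. In SkM it lay at 252.3 and 176.3 CPM in WT replicates 1 and 2, and at 387.6, 686.2 and 120.5 CPM in the E0del/+ replicates. The tissues did not overlap, and the spread was far wider in SkM. The log2 fold change was 3.09 ± 0.47 (SE), or 8.52-fold, with an adjusted p of 0.000887 and a higher level in LV in 4 of 4 mice. Within mice, the ratio on the TMM scale ran from 3.14 in E0del/+ replicate 2 to 24.7 in E0del/+ replicate 3, so its size depended on the SkM library of the mouse. On total counts the ratio ran from 5.65 to 36.0 in the same mice.

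Cryab encodes alpha-B-crystallin, which binds desmin and titin. It lay at 616.9 CPM in LV of WT replicate 1 and at 612.0, 835.7 and 728.1 CPM in LV of the E0del/+ replicates. Its SkM levels were 156.0 and 178.2 CPM in WT, and 180.8, 284.8 and 134.8 CPM in E0del/+. The tissues did not overlap, and Cryab was 2.43-fold higher in LV on the TMM scale (log2 fold change 1.28 ± 0.21 SE, adjusted p 0.00128, 4 of 4 mice). The median ratio within mice was 2.55 on that scale and 3.67 on total counts.

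Bag3 was the steadiest member in SkM. It lay at 80.6 and 79.4 CPM in WT SkM and at 78.6, 89.1 and 80.7 CPM in E0del/+ SkM. In LV it reached 237.3 CPM in WT replicate 1 and 245.5, 209.6 and 290.4 CPM in the E0del/+ replicates. Bag3 was 1.89-fold higher in LV on the TMM scale (log2 fold change 0.92 ± 0.17 SE, adjusted p 0.00251, 4 of 4 mice). The median ratio within mice was 2.11 on that scale and 3.03 on total counts. The highest SkM library of Bag3 was 1.25 times the lowest on the TMM scale, a spread that 75.0% of 7380 genes matched or exceeded. HSPB8, the partner that BAG3 joins to HSP70, gave another picture. Hspb8 lay at 423.8 CPM in LV of WT replicate 1 and 453.3, 405.5 and 525.1 CPM in LV of E0del/+, against 319.3 and 503.6 CPM in WT SkM and 349.1, 379.3 and 389.0 CPM in E0del/+ SkM. The tissues overlapped, and the log2 fold change of -0.32 ± 0.17 (SE) missed the threshold with an adjusted p of 0.128, with 4 of 4 mice below 0 on the TMM scale and 4 of 4 above 0 on total counts.

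Hspb3 and Hspb2 encode a pair that form a complex with each other in muscle. Hspb3 was the scarcest member, at 3.53 CPM in LV of WT replicate 1 and 3.84, 4.09 and 4.45 CPM in LV of E0del/+. Its SkM levels were 7.63 and 10.9 CPM in WT, and 7.63, 11.5 and 7.25 CPM in E0del/+. Every SkM library was above every LV library used, and Hspb3 was 3.30-fold higher in SkM on the TMM scale (log2 fold change -1.72 ± 0.23 SE, adjusted p 0.000435, 4 of 4 mice). The median ratio of LV to SkM within mice was 0.336 on that scale and 0.483 on total counts. Hspb2 lay at 34.8 CPM in LV of WT replicate 1 and 34.8, 49.4 and 35.6 CPM in LV of E0del/+, beside 30.7 and 39.2 CPM in WT SkM and 29.4, 32.8 and 29.4 CPM in E0del/+ SkM. It was called lower in LV by a small margin (log2 fold change -0.33 ± 0.10 SE, adjusted p 0.0186, 4 of 4 mice), a direction that reversed to 0.32 on total counts. That call was lost without E0del/+ replicate 1 (adjusted p 0.0808), E0del/+ replicate 3 (0.0530) or WT replicate 1 (0.0717).

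Hspb1 encodes HSP25, the mouse form of HSP27, which binds actin filaments. It lay at 113.4 CPM in LV of WT replicate 1 and 125.1, 160.4 and 161.4 CPM in LV of E0del/+. In SkM it lay at 54.1 and 56.0 CPM in WT and 69.2, 137.0 and 50.1 CPM in E0del/+. A single SkM library, E0del/+ replicate 2, reached into the LV range. The log2 fold change was 0.31 ± 0.26 (SE) with an adjusted p of 0.338, and 3 of 4 mice were higher in LV. Without E0del/+ replicate 2 it was 0.64 and passed the threshold, with an adjusted p of 0.0163. Hspb6 encodes HSP20, a target of cyclic nucleotide-dependent kinases in muscle. It lay at 870.5 CPM in LV of WT replicate 1 and 975.9, 1021 and 1236 CPM in LV of E0del/+, and at 680.7 and 651.0 CPM in WT SkM and 973.4, 1084 and 620.0 CPM in E0del/+ SkM. The tissues overlapped, with a log2 fold change of -0.34 ± 0.24 (SE), an adjusted p of 0.255 and 1 of 4 mice higher in LV, or 3 of 4 on total counts.

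The directions of some members depended on the scaling. The 10 most abundant genes held between 27.2% and 29.5% of counts in SkM and between 12.5% and 14.5% in LV. With total counts in place of TMM factors, the median log2 fold change of all genes shifted from 0.02 to 0.67, and Hspb2 (0.32), Hspb6 (0.31) and Hspb8 (0.33) reversed. On that scale Hspb1 (0.96, adjusted p 0.00712), Hspb2 (adjusted p 0.0367) and Hspb8 (adjusted p 0.0206) were called higher in LV, each in 4 of 4 mice. Hspb7, Cryab and Bag3 stayed higher in LV and Hspb3 stayed higher in SkM on both scales. All genes called then split into 7683 higher in LV and 1698 higher in SkM, in place of 4211 and 3991.

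**Figure D2:**
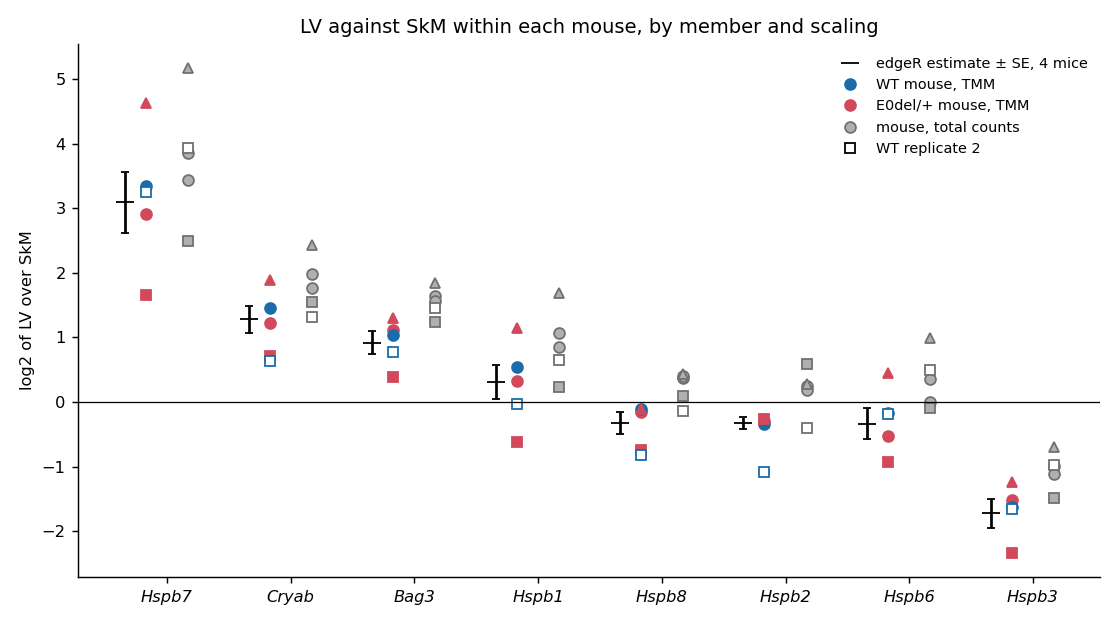
Log2 of LV over SkM for each member, as the edgeR estimate with its standard error and as the value of each mouse with TMM factors (colour) or total counts (grey), with open squares for WT replicate 2. Hspb7, Cryab and Bag3 were above 0 and Hspb3 below 0 in 4 of 4 mice on both scales, while Hspb2 and Hspb8 were below 0 with TMM and above 0 on total counts in 4 of 4.

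The LV library of WT replicate 2 differed from the other LV libraries in the members too. It held 88.1 CPM of Hspb1, 29.6 of Hspb2, 2695 of Hspb7 and 446.1 of Cryab, all below the range of the others, and 5.58 CPM of Hspb3, above it. Hspb6 (915.4 CPM), Hspb8 (456.4 CPM) and Bag3 (217.3 CPM) lay within the range. On the TMM scale 4 of 8 members were below and 1 of 8 above, beside 25.5% and 27.3% of 14309 genes. Hspb1, Hspb3, Hspb7 and Cryab were shifted toward their SkM levels, and the part of the fast-fibre transcripts of this library in that shift was not tested. With all 5 mice, 3 of 8 members were called higher in LV and 2 of 8 lower. Of the 13283 genes then tested, 4269 were higher and 3986 lower, so this count is not a result about the members.

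Cryab and Hspb2 start 403 bases apart and point away from each other, yet they differed between tissues in opposite directions on the TMM scale. Cryab counts were between 16.9 and 20.5 times those of Hspb2 in the 4 LV libraries, 15.1 times in LV of WT replicate 2, and between 4.54 and 8.67 times in SkM. Per length, the ratio was between 11.99 and 14.5 in these 4 LV libraries, 10.7 in LV of WT replicate 2, and between 3.22 and 6.15 in SkM. This ratio needs no scaling between libraries. The log2 ratio was higher in LV by 1.61 ± 0.50 (SD) in 4 of 4 mice, where the exact two-sided sign permutation gave p = 0.125, the smallest that 4 mice allow. With 5 mice it was 1.63 ± 0.44 (SD), with an exact p of 0.0625, again the smallest possible. One annotated form of Cryab covers 252 exon bases of Hspb2 on the opposite strand, and the libraries do not keep the strand, so the Hspb2 counts carry that uncertainty.

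**Figure D3:**
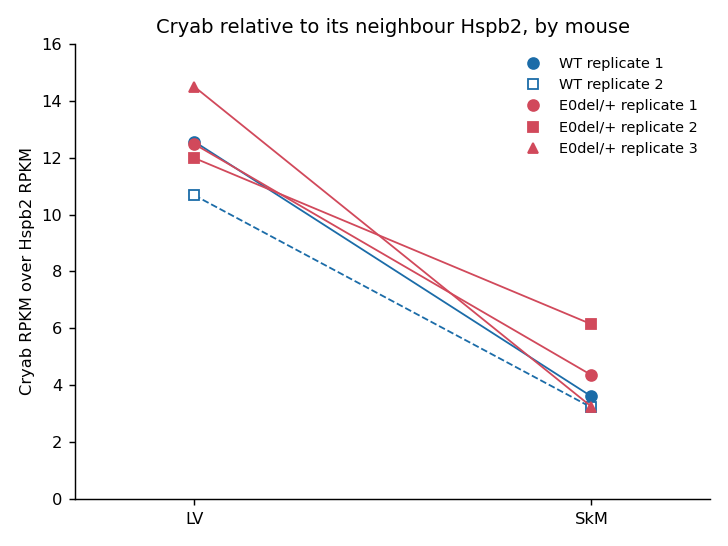
Cryab RPKM over Hspb2 RPKM in LV and SkM, with a line for each mouse and a dashed line and open squares for WT replicate 2. The other 4 LV libraries lie between 11.99 and 14.5 and the SkM libraries between 3.22 and 6.15.

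Within SkM the members differed widely in how much they varied. The highest library over the lowest on the TMM scale was 5.82 for Hspb7, which 1.76% of 7380 genes matched or exceeded, beside a median of 1.39 over these genes. It was 2.88 for Hspb1 (4.74% of genes), 2.16 for Cryab (8.58%), 1.94 for Hspb8, 1.81 for Hspb6 and 1.58 for Hspb2. Hspb7, Hspb1, Hspb6 and Cryab were all highest in E0del/+ replicate 2 on both scales. On total counts they were next in E0del/+ replicate 1 and lowest in E0del/+ replicate 3. With TMM factors WT replicate 2 came second for Cryab (247.4 CPM, against 212.0 in E0del/+ replicate 1), and WT replicate 1 was lowest for Hspb1 and Hspb6. Hspb2 and Hspb8 were instead highest in WT replicate 2. In the 4 LV libraries the ratio ran from 1.29 for Hspb2 to 1.67 for Bag3 among the members at 10 CPM or more, beside a median of 1.32 over 9111 genes. With TMM factors 6 of these 7 members, all but Hspb2, were highest in LV of E0del/+ replicate 3, and on total counts 5 were, with Cryab then highest in E0del/+ replicate 2. The 8 immediate early and stress genes, led by Jun, summed to 314.5 CPM in LV of E0del/+ replicate 3, 163.3 and 212.4 in E0del/+ replicates 1 and 2, and 177.9 and 159.6 in WT replicates 1 and 2. Of the sum in E0del/+ replicate 3, Jun gave 193.1 CPM and Atf3 42.2 CPM, and these and Hmox1 were highest there. Fos was lowest there (3.66 CPM), and Junb, Egr1, Ddit3 and Fosb lay within the range of the other LV libraries. The part of these 8 genes in the LV levels of the members was not tested.

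Markers of slow fibres also differed widely among the SkM libraries, and in part followed the members. The 6 genes of the slow-fibre list, led by Myh7 in SkM, summed to 2075 CPM in E0del/+ replicate 2, 1559 in E0del/+ replicate 1, 1132 in WT replicate 1, 247.3 in E0del/+ replicate 3 and 121.0 in WT replicate 2. All 6 of 6 genes had the same order of libraries, and LV also expressed 4 of them, Myh7, Myl2, Tnnc1 and Myoz2, at 211.9 CPM or more. On total counts Hspb7 and Hspb6 had this order but for its last places, where WT replicate 2 was above E0del/+ replicate 3. Hspb1 and Cryab did not follow it among the WT mice, since WT replicate 2, with the fewest slow-fibre transcripts, was above WT replicate 1 for both, and with TMM factors also for Hspb6 (903.6 against 769.4 CPM). The SkM libraries with more slow-fibre transcripts were also those of the Xist-expressing mice, so sex and fibre markers cannot be told apart here. The cardiomyocyte list, led by Actc1, summed to 1535, 1423, 2241, 201.1 and 232.0 CPM in the same sequence of libraries. The part of these markers in the spread of the members was not tested.

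**Figure D4:**
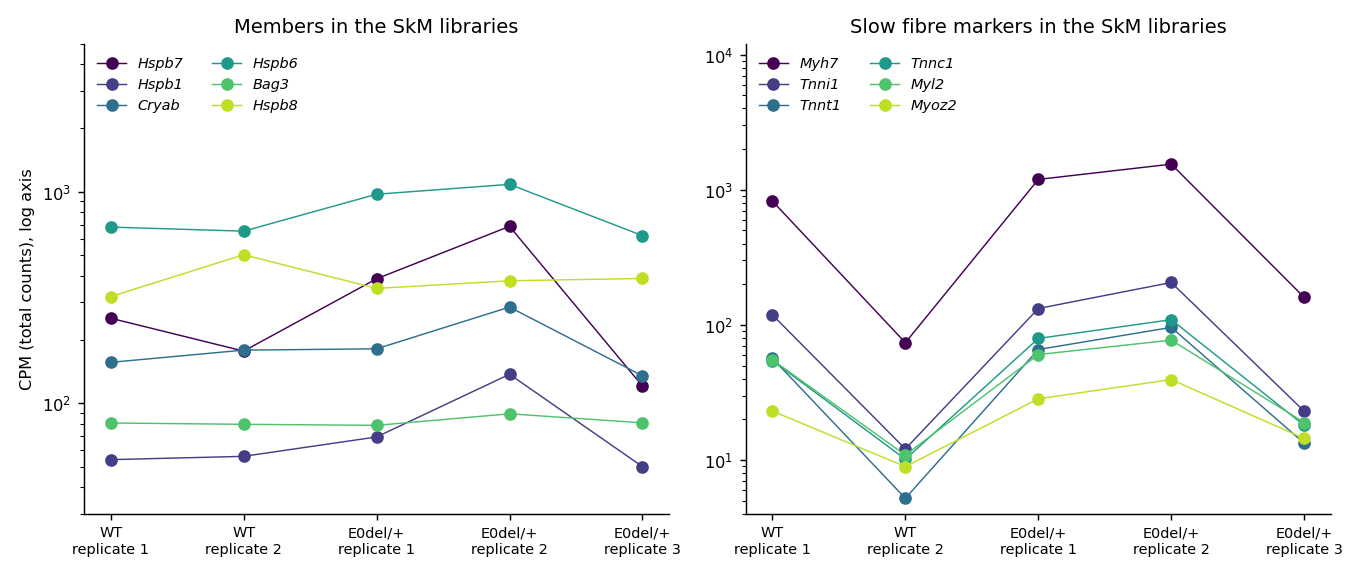
Levels of 6 members (left) and of the 6 slow-fibre genes (right) in the 5 SkM libraries, in CPM on a log axis, with lines that only join the points of a gene. The 6 slow-fibre genes share 1 order of libraries, and Hspb7 ran from 120.5 to 686.2 CPM.

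The next comparison asked how E0del/+ differed from WT in each tissue. Ttn, the gene whose intron carries the deletion, lay at 7959 and 9344 CPM in WT LV and at 7737, 5560 and 6597 CPM in E0del/+ LV, with the higher WT value from the library set apart. Its log2 fold change in LV was -0.45 with an adjusted p of 0.997, and -0.25 without WT replicate 2. In SkM, Ttn lay at 24205 and 15856 CPM in WT and at 20092, 18854 and 13585 CPM in E0del/+, with a log2 fold change of -0.17 and an adjusted p of 1.000. Without WT replicate 1 that value was 0.02. In LV, 3 of 3 E0del/+ libraries were below both WT libraries on total counts, but E0del/+ replicate 1 was level with WT replicate 1 on the TMM scale (6288 and 6268 CPM), and Ttn passed the test in neither tissue. These totals hold both Ttn alleles together. Comparing alleles, the paper reported less transcript from the deletion-bearing one in LV and SkM of hybrid E0del/+ mice.

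In LV, 0 of 8 members were called, as were 0 of the 13420 genes tested (0%), with 564 genes at an unadjusted p under 0.05 and 12 called by DESeq2. Without WT replicate 2, edgeR called 0 and 104 genes had an unadjusted p under 0.05. Without WT replicate 1, which leaves the library set apart as the only WT sample, 578 genes were called and again 0 members. Of the 12 genes called by DESeq2, named after their values were seen, 10 were of fast skeletal muscle type, among them Myh4, Actn3 and Pvalb, and the others were Ptgds and Tubb5. By libraries that did not overlap, 3 of 8 members were higher in E0del/+ (8.59% of all genes) and 0 of 8 lower (7.89%). Those 3 were Hspb1, Hspb2 and Cryab on the TMM scale, all genes that were low in the WT library set apart. On total counts the members that did not overlap were instead Hspb1, Hspb6 and Hspb7. No share of all genes is given on that scale, so their number is not a result about the members. There Hspb2 and Cryab overlapped, since WT replicate 1 was above E0del/+ replicate 1.

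Hspb1 had the largest genotype difference of the members in LV, a log2 fold change of 0.51 ± 0.19 (SE) with an adjusted p of 0.997 and 3 of 3 E0del/+ libraries above both WT libraries. It was 0.40 without WT replicate 2. With TMM factors the ratio of E0del/+ to WT was 1.14 within batch 1 and 1.502 within batch 2, which holds the WT library set apart, and batch 3 has no WT library. Cryab gave 0.39 ± 0.22 (SE), with ratios of 1.02 in batch 1 and 1.55 in batch 2. Hspb7 gave 0.33 ± 0.24 (SE), with ratios of 1.19 in both batches. The batches thus differed for Hspb1 and Cryab and were alike for Hspb7 on this scale, while on total counts Hspb7 gave 1.15 and 1.44. Batch 2 also set an Xist-expressing E0del/+ mouse against a Y-bearing WT mouse, so sex and genotype cannot be told apart within it. The other members had log2 fold changes of 0.24 for Hspb2, 0.21 for Hspb6, 0.08 for Bag3, 0.01 for Hspb8 and -0.21 for Hspb3. The median over the members was 0.22 and over all genes -0.01. Hspb3 turned to 0.23 without WT replicate 2. Single libraries decided much of the size of several values. Without WT replicate 2, Cryab was 0.23 and Hspb7 0.19, and Hspb6 0.32. Without E0del/+ replicate 3, Hspb6 was 0.042, Hspb8 -0.15 and Bag3 -0.10, and without E0del/+ replicate 2, Hspb2 was 0.13. Without WT replicate 1, Hspb7 was 0.50, Cryab 0.57 and Hspb6 0.12.

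In SkM, 0 of 8 members and 0 of the 13154 genes tested were called (0%), with 114 genes at an unadjusted p under 0.05 and 0 called by DESeq2. By libraries that did not overlap, 0 of 8 members were higher (6.59% of all genes) and 0 of 8 lower (5.34%) in E0del/+. Hspb7 had the largest difference, a log2 fold change of 0.93 ± 0.69 (SE) with an adjusted p of 1.000, and 2 of 3 E0del/+ libraries were above both WT libraries. With TMM factors its ratio of E0del/+ to WT was 1.59 in batch 1 and 3.60 in batch 2. The value rested on E0del/+ replicate 2, without which it was 0.22, and it was 1.29 with the batch as a block and 0.39 with sex as a block. Hspb1 gave 0.65 ± 0.46 (SE), with ratios of 1.33 and 2.26, and 0.08 without E0del/+ replicate 2. Hspb6 gave 0.43 ± 0.27 (SE), with ratios of 1.48 and 1.54, and 0.22 without E0del/+ replicate 2. Here too, sex and genotype cannot be told apart within batch 2. In both batches Hspb7, Hspb1, Hspb6 and Cryab were higher in the E0del/+ library. On total counts E0del/+ replicate 3 was the lowest of all 5 for each of them, and with TMM factors it was the lowest for Hspb7 and Cryab, with WT replicate 1 lowest for Hspb1 (61.1 CPM) and Hspb6 (769.4 CPM). Cryab gave 0.26, Bag3 0.05, Hspb3 -0.09, Hspb8 -0.17 and Hspb2 -0.21, with a member median of 0.16 and an all-gene median of -0.01. Leaving out single libraries turned the direction of each of these. Cryab then ranged from -0.13 to 0.51, Bag3 from -0.058 to 0.18 and Hspb3 from -0.43 to 0.35. Hspb8 ranged from -0.55 to 0.36 and Hspb2 from -0.48 to 0.13. The libraries of Hspb7, Hspb1 and Hspb6 that were high for E0del/+ were also those with most slow-fibre transcripts, whose part in these differences was not tested. The same E0del/+ libraries held the least of the 6 Schwann cell markers, which, led by Pmp22, summed to 26.2 and 35.8 CPM in E0del/+ replicates 1 and 2, 106.6 in E0del/+ replicate 3, and 151.2 and 95.5 in WT replicates 1 and 2. Their median log2 fold change, E0del/+ against WT in SkM, was -1.08, with 0 genes called by edgeR or DESeq2 and 0 at an unadjusted p under 0.05, and their part was not tested. Of 8 immediate early and stress genes, led by Jun, 3 were also highest in SkM of E0del/+ replicate 2, named after their values were seen. There Atf3 reached 21.6 CPM, against 1.27 to 7.81 CPM in the other SkM libraries, Egr1 28.8 CPM, against 1.37 to 17.8 CPM, and Fos 10.99 CPM, against 2.69 to 7.75 CPM. Jun, Junb, Fosb and Ddit3 were not highest there, and Hmox1 was lowest, at 3.33 CPM against 4.18 to 7.04 CPM. No share of all genes is given, so the 3 of 8 are not a result about the list. The list summed to 136.7 CPM in that library and to 107.1, 110.3, 74.1 and 100.01 CPM in E0del/+ replicate 1, WT replicates 1 and 2 and E0del/+ replicate 3, and the part of these genes was not tested either.

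Whether the genotype difference itself differed between the tissues was tested as an interaction over all 10 libraries. No call was made by edgeR among 14327 genes (0%), with 238 at an unadjusted p under 0.05 and 0 called by DESeq2, and 0 of 8 members passed. The members' values, SkM minus LV, ran from -0.44 for Hspb2 to 0.24 for Hspb7, each smaller than its standard error but for Hspb2 (SE 0.27). Leaving out single mice turned the direction of every member. Hspb7 then ranged from -0.48 to 1.01 and Hspb2 from -0.81 to 0.028. Without WT replicate 1, 155 genes were called and 0 members.

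**Figure D5:**
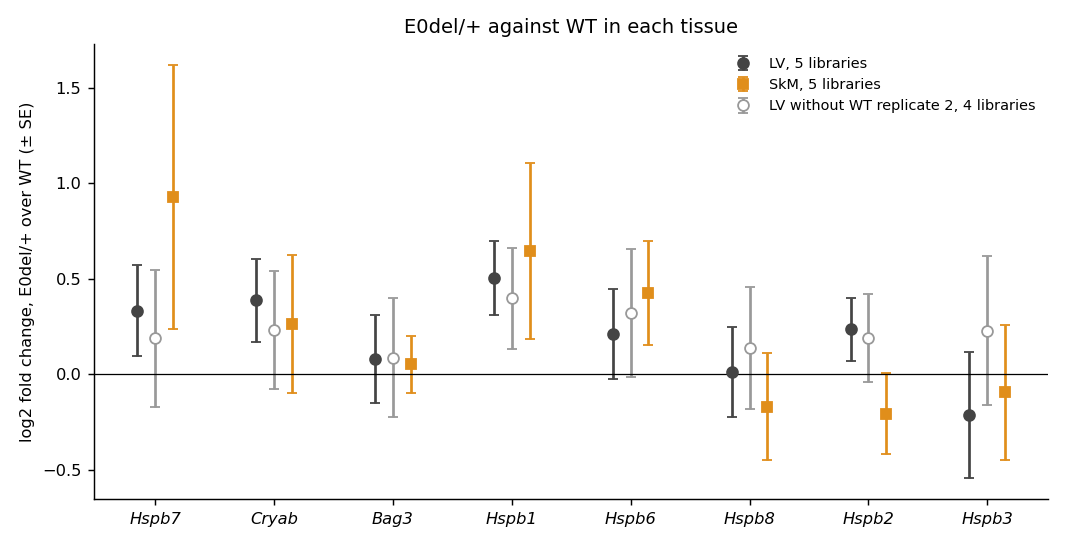
E0del/+ against WT as log2 fold change with its standard error for each member in LV (filled circles), in LV without WT replicate 2 (open circles) and in SkM (squares). No member passed the threshold in either tissue.

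The genes that work with the members were read from lists, with calls between LV and SkM given as higher and lower in LV. Of 11 partners of BAG3 in selective autophagy, 3 were higher and 4 lower, where 31.5% and 29.8% of all genes were, so the count is not a result about the list. Synpo2, the synaptopodin family member that links BAG3 to membrane fusion, fell by 2.77 on the log2 scale in LV, while the autophagosome proteins Gabarapl1 (1.11) and Map1lc3a (1.06) were higher and the autophagy receptor Sqstm1 (-0.74) was lower. Sqstm1 was -0.08 and not called on total counts.

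Of 5 other BAG family genes, 1 was higher (Bag2, 0.63) and 2 were lower (Bag4, -0.84, and Bag6, -0.40), and Bag6 reversed to 0.25 on total counts while Bag4 (-0.19) was then not called. Of 18 chaperones of the HSP70, HSP90 and HSP40 classes, 3 were higher and 4 lower. For both lists, the shares of all genes were 31.5% higher and 29.8% lower. The largest among the chaperones were Hspa1l (-1.68) and Dnajb5 (-1.53), lower in LV, and Dnajb1 (1.16) and the inducible HSP90 gene Hsp90aa1 (0.92), higher in LV. The heat shock factors, which bind heat shock elements, were called lower in 3 of 3, where 29.8% of all genes were. Hsf4 was at -1.28, Hsf2 at -0.999 and Hsf1 at -0.57, the last of which was 0.08 on total counts. Hsf4 and Hsf2 thus differed in the opposite direction from Hspb7, Cryab and Bag3. Of 4 other small heat shock protein genes only Hspb11 passed the filter, at up to 1.82 CPM, and Cryaa had a count of 0 in all 10 libraries.

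Transcripts of proteins that these chaperones bind, or that sit beside them, also differed between the tissues. Of 6 client and scaffold genes, 2 were called higher in LV and 4 lower, beside 31.5% and 29.8% of all genes. Ttn (-2.10) and the intermediate filament gene Des (-1.19) were lower in LV, and the Z-disc gene Actn2 (1.43) and Vim (1.18) were higher. Cryab, which binds titin and desmin, was thus higher in the tissue where the transcripts of both were lower. Medians of log2 fold change were -0.15 for the BAG3 partners, -0.20 for the BAG family, -0.24 for the chaperones, -0.999 for the factors and -0.93 for the clients, against 0.02 over all genes. In E0del/+ against WT, 0 genes of these lists were called in either tissue by edgeR.

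Genes whose profile was most like a member were found by root mean square difference of centred log2 CPM over 9 libraries among 8612 genes. Hspb7 was nearest to Myoz2 (0.367), then to Nnt (0.393) and Cnksr3 (0.426). Myoz2 is on the slow-fibre list and was itself higher in LV than in SkM, with a log2 fold change of 3.19. Hspb1 was nearest to Dnaja4 (0.247), an HSP40 gene, then Pdlim5 (0.317) and Usp28 (0.322). Dnaja4 shared the high value in SkM of E0del/+ replicate 2, with 104.5 CPM against 56.0 to 67.1 CPM in the other SkM libraries. Cryab was nearest to Myl12a (0.226), Manba (0.253) and Eml2 (0.263), and Bag3 to Acat1 (0.0768), Itga7 (0.114) and Camk2d (0.115). The nearest genes of Hspb6 were Acot9 (0.149), Sphk2 (0.171) and E430025E21Rik (0.181), those of Hspb8 were Arhgef10l (0.0755), Spg7 (0.108) and Rilpl1 (0.108), and those of Hspb2 were B3gat3 (0.0735), 1110007C09Rik (0.0768) and Rpl14 (0.0779). Among the members, Cryab and Bag3 were each other's nearest (0.349), as were Hspb2 and Hspb8 (0.230), and Hspb7 stood farthest from any other, with Cryab nearest at 1.07. Hspb3 was below the mean of 10 CPM needed for this comparison.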

How the data were processed

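The authors deposited, for 10 bulk RNA sequencing libraries (Nextera XT, unstranded), a raw count and an RPKM value per gene, and the submitters' notes name STAR, DESeq2 and mm10. The counting software and annotation are not given in the sources used here. Raw counts were tested with edgeR 4.0.16 in R 4.3.3 (filterByExpr, TMM, quasi-likelihood test, Benjamini-Hochberg over all genes, threshold 0.05), in code tested on simulated data. The SE of an edgeR log2 fold change was derived from the test, as its absolute value over the square root of the F statistic. RPKM served for levels between genes. LV was compared with SkM with the mouse as a block in 4 mice, and E0del/+ with WT in each tissue over 2 and 3 libraries. Deviations from the group means correlated between -0.101 and 0.092 across genes within a mouse, and the tissues were paired because they come from 1 animal. Between the E0del/+ and WT libraries of batches 1 and 2 they correlated at 0.031 and -0.118 in LV and at 0.518 and 0.31 in SkM. Alternatives were DESeq2 1.42.0, its size factors, total counts, no filter or at least 10 counts in every library, all 5 mice, batch or sex as a block, no block, and each mouse left out. The members and lists were chosen with earlier results of these data known. All 8 members are named. Of each other list, up to 4 called genes with the largest log2 fold change are named, and for each member the 3 genes with the nearest profile.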

Additional observations from a re-analysis of the deposited data

Results flagged for a closer look

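Among the 16 groups examined, 8 members in each of 2 tissues, 2 had a library whose gap to its neighbour took up more of the whole range than Dixon's limit of 0.71 for 5 libraries allows. Chance flags about 1 in 20 groups, which is 0.8 of 16. Hspb1 in SkM was 136.98 CPM in E0del/+ replicate 2, with a gap of 0.780 of the range. Bag3 in SkM was 89.08 CPM in the same library, with a gap of 0.795 of the range. Both gaps are on total counts. With TMM factors the highest and next SkM libraries were 175.7 and 81.2 CPM for Hspb1, but 114.2 and 110.3 CPM for Bag3, whose lowest was 91.1 CPM, so Bag3 in this library no longer stood apart. This library also held the most slow-fibre transcripts, and their part in either value was not tested.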

How the results depend on the processing

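Between LV and SkM, the calls of Hspb7, Cryab, Bag3 and Hspb3 kept their direction and stayed past the threshold under all 11 alternatives, with log2 fold changes of 2.60 to 3.73, 1.09 to 1.93, 0.81 to 1.57 and -1.87 to -1.07. Of 88 member fits, 80 kept direction and side of the threshold, 3 lost the call, 2 gained it and 3 reversed. Total counts reversed Hspb2 (0.32), Hspb6 (0.31), Hspb8 (0.33), Bag6 (0.25), Hsf1 (0.077) and Trap1 (0.20), in step with the shift of the all-gene median to 0.67. Without each mouse, Hspb2 ranged from -0.34 to -0.33 and Hspb1 from 0.04 to 0.64. In LV, E0del/+ against WT gave 12 calls by DESeq2 and 5 with the batch as a block (Kdm5d, Uty, Ddx3y, Eif2s3y and Mstn, named after their values were seen), and 0 to 578 without each library. The block reversed Hspb8 (-0.15) and Bag3 (-0.12). Without each library, Hspb8 ranged from -0.15 to 0.15, Bag3 from -0.10 to 0.24 and Hspb3 from -0.56 to 0.23. In SkM the block gave 1 call, again the Y-linked Eif2s3y, and reversed Hspb3 (0.034). Without each library the ranges were -0.43 to 0.35 for Hspb3, -0.13 to 0.51 for Cryab, -0.058 to 0.18 for Bag3, -0.48 to 0.13 for Hspb2, -0.55 to 0.36 for Hspb8 and -0.33 to 0.020 for Ttn. The interaction gave 0 to 155 calls without each mouse. DESeq2's size factors reversed Hspb1 (0.022) and Bag3 (0.0101), DESeq2's Wald test Hspb1 (0.0201) and Bag3 (0.0101), and a fit without the block Hspb1 (0.10). Without each mouse, the interaction ranged from -0.48 to 0.41 for Hspb1, -0.81 to 0.028 for Hspb2, -0.26 to 0.28 for Hspb3, -0.14 to 0.55 for Hspb6, -0.48 to 1.01 for Hspb7, -0.48 to 0.32 for Hspb8, -0.63 to 0.28 for Cryab and -0.31 to 0.19 for Bag3. No member was called in a genotype fit under any alternative, and the block changed no call of a member. Without the mouse as a block, 8628 genes were called between LV and SkM in place of 8202. The cause was not tested. With 1 WT library left, that library was assumed to vary like the others.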

Other observations

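Chaperones of the mitochondrion and the endoplasmic reticulum were read beside the members. Of 8 genes, 3 were called higher in LV and 1 lower, beside 31.5% and 29.8% of all genes. The endoplasmic reticulum chaperones Hspa5 (log2 fold change 1.53), Hsp90b1 (1.12) and Pdia4 (0.90) were higher in LV, and the mitochondrial HSP90 gene Trap1 (-0.45) was lower, with 0.20 on total counts. Of 7 immediate early and stress genes tested, 0 were higher and 1 was lower in LV, Fos at -0.84, which was -0.18 and not called on total counts. Atf3 reached 42.2 CPM in LV of E0del/+ replicate 3, against 7.42 to 8.22 CPM in the other 4 LV libraries, and Jun reached 193.1 CPM there, against 83.5 to 106.0 CPM. Fos was instead lowest in that library, at 3.66 CPM against 4.77 to 8.45 CPM.

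Other marker lists between LV and SkM gave, as genes called higher and lower in LV, 3 and 2 of 6 for slow fibres, 1 and 2 of 6 for smooth muscle, 5 and 0 of 6 for endothelium, 6 and 0 of 6 for fibroblasts, 3 and 0 of 5 for macrophages, 0 and 6 of 6 for adipocytes, 0 and 3 of 6 for Schwann cells, and 0 and 0 of 1 for blood. Over all genes, 31.5% were called higher and 29.8% lower. With all 5 mice 0 adipocyte genes were called, and the counts of the other lists named here changed by at most 1 gene. Haemoglobin genes Hba-a1 and Hba-a2 were listed at 0 in all 10 libraries. The adipocyte list, led by Cfd, summed to 1139 and 1198 CPM in SkM of WT replicate 1 and E0del/+ replicate 3, to between 8.98 and 284.8 CPM in the other SkM libraries, and to 283.6 CPM in LV of WT replicate 2.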
